A study of Rattus norvegicus with 9 samples.

Results

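Lungs of Sprague-Dawley rats whose left hilum had been clamped for 30 min and then released for 2 h of reperfusion (IR) were set against lungs whose hilum was dissected free and not clamped (Sham). The comparison rests on 3 IR and 3 Sham libraries and on the genes with a mean FPKM (a level corrected for transcript length and for the number of mapped reads) of at least 0.5 over the 9 libraries of the series, which are 15402 of the 22833 genes in the deposited table. Rats of both groups were male, 8 weeks old and 6 to a group, and all were anaesthetized with urethane, given heparin, tracheotomized and ventilated, so both groups carry the effects of anaesthesia, heparin and the ventilator. The 3 libraries of another group (I-post C, clamped for 30 min and then given short cycles of ischemia before the 2 h) entered the fit only for the estimate of the spread. The sources used here do not give which rats supplied RNA, and 1 library was taken as 1 rat. If libraries shared an animal, the p-values would measure only technical spread.

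When blood returns to a lung that has been without flow, oxidants, calcium and shear act on endothelium, epithelium and resident macrophages. Signals through MAP kinases and NF-kB then switch on early-response genes within minutes to hours, among them transcription factors, feedback inhibitors, coagulation genes and matrix enzymes, and neutrophils are drawn in. Transcripts with short lives can fall over the same time once they are no longer made. The roles given below are those known from human, mouse or rat genes.

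Total counts per library were 45110590 to 51023560 in IR and 47332060 to 51214941 in Sham. In each library this total exceeded the mapped reads that the paper lists, so the values cannot be plain counts of sequenced fragments. How they were counted is not stated in the sources used here. Error was therefore judged from differences among libraries of a group, without intervals from counting. Both edgeR and DESeq2 took the counts as deposited, and what the excess does to their calls was not tested. Sham 3 stood apart from the other libraries on the first principal component of log2 FPKM (39.3% of the variance) and IR 3 on the second (21.5%). Across the 6 libraries of the comparison, Sham 3 had the highest FPKM for 26.7% of the genes tested and the lowest for 34.1%. Mitochondrially encoded transcripts took 8.20% of the counts in IR 3 and 3.03% in Sham 3. The summed FPKM of 19 skeletal muscle markers was 5701 in IR 3, against 45.6 and 64.3 in the other 2 IR libraries and 37.7 to 113 in the Sham libraries. The list's median log2 fold change (log2FC, IR over Sham) was 4.86 with IR 3 and -0.43 without it. Other marker lists also stood apart in IR 3 or Sham 3. The sum over 11 cardiomyocyte markers was 664 in IR 3, 30.3 in IR 1 and 12.4 in IR 2, and 17.1 to 27.1 in Sham lungs. For 23 ciliated cell markers it was 1223 in Sham 3, 553 in Sham 1 and 513 in Sham 2, and 329 to 527 in IR lungs. For 13 airway secretory markers it was 15109 in Sham 3, 6218 in Sham 1 and 8880 in Sham 2, and 4577 to 10422 in IR lungs. Sftpc, the surfactant protein C gene of alveolar type 2 cells, had the highest mean FPKM of all genes, with 16458, 19876 and 19507 in IR and 17084, 33124 and 37521 in Sham lungs. A lower level in whole lung tissue can come from fewer cells of a type or from less RNA per cell, and these cannot be told apart.

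Many more genes rose than fell. edgeR's quasi-likelihood test with Benjamini-Hochberg adjustment over all genes called 43 genes higher in IR lungs (0.279% of the genes tested) and 3 genes lower (0.0195%), where a call needed an adjusted p below 0.05 together with a 2-fold change. DESeq2 on the 6 IR and Sham libraries alone called 233 higher (1.51%) and 60 lower (0.39%), with all 46 of edgeR's among them. edgeR's calls came from the fit to all 9 libraries, and on the 6 libraries alone it called 6 higher and 0 lower. Of those 6, 4 were among the 43. On all 9 libraries DESeq2 called 240 higher and 96 lower. At an unadjusted p under 0.05 with no fold limit, edgeR's fit held 996 genes higher and 888 lower. By another measure, the overlap of the deposited FPKM values, the balance was the other way round. That measure uses no test and no further scaling of the libraries. Every IR library lay below every Sham library for 1454 genes (9.44%) and above every Sham library for 865 genes (5.62%), so that most of the genes with separate groups were lower in IR, by a small amount. The median log2FC was -0.58 over the 1454 genes, 1.02 over the 865 genes and -0.02 over all genes tested.

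The counts turn on single libraries. With 1 library left out, edgeR called 27 higher without IR 1, 0 without IR 2, 5 without IR 3, 1 without Sham 1, 0 without Sham 2 and 1 without Sham 3. Leaving out I-post C 1 gave 20 higher genes, I-post C 2 gave 1 and I-post C 3 gave 52. Lower genes were called in only 1 of these fits, that without I-post C 3, where 2 of the 3 were the same as with all libraries. Where the count was 0, 531 genes without IR 2 and 461 without Sham 2 were at least 2-fold higher at an unadjusted p under 0.05. With both Sham 3 and IR 3 left out, which was tried after the data had been seen, edgeR called 5 genes higher and 0 lower, with 330 higher and 172 lower at an unadjusted p under 0.05. The sizes of the changes moved less than the calls. Of the 43 higher genes, 42 stayed at least 2-fold higher without Sham 3 and IR 3, and the remaining one had a log2FC of 0.99. The 43 genes were chosen in a fit that held the remaining libraries too, so that count describes the choice in part.

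**Figure D1:**
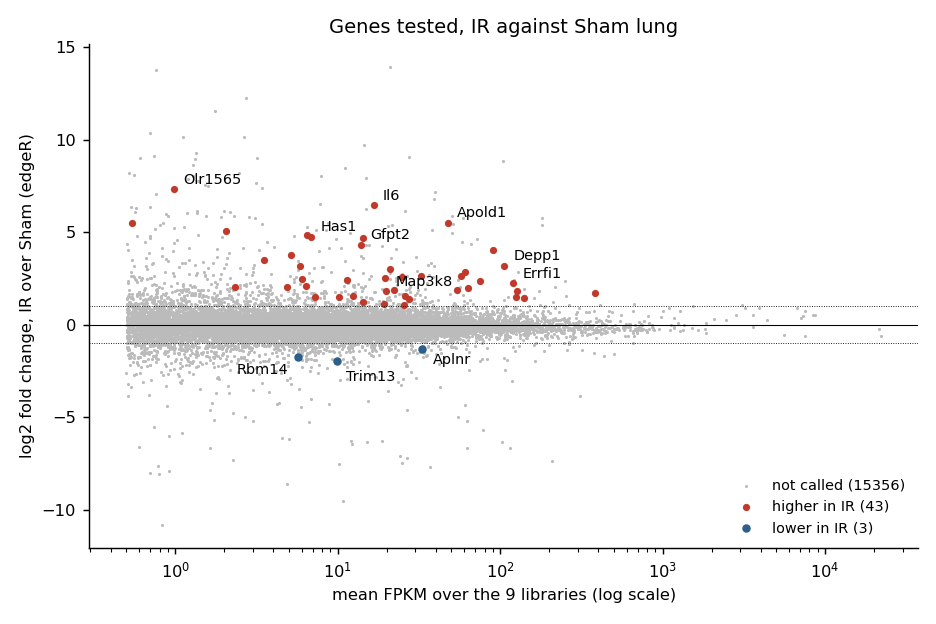
Each dot is 1 of the 15402 genes, with its mean FPKM over the 9 libraries (log scale) on the x axis and its log2 fold change, IR over Sham, from edgeR on the y axis. The 43 genes called higher (red) outnumber the 3 called lower (blue), and many grey genes with larger fold changes did not pass the test.

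The genes that passed the test downward were Trim13, Rbm14 and Aplnr, and in each of them the groups were separate, which a choice by p favours. Trim13 encodes a ubiquitin ligase of the endoplasmic reticulum and spans 41927241 to 41935718 on chromosome 15 (rn6). Its FPKM was 4.92, 3.39 and 3.92 in IR lungs and 16.5, 16.7 and 16.6 in Sham lungs. The Sham values were almost equal, and the fall was the steepest of the 3 (log2FC -1.97, SE 0.31, adjusted p = 0.0489 from edgeR). Its log2FC stayed between -2.06 and -1.86 whichever library was left out.

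Rbm14 encodes an RNA-binding protein of paraspeckles that coactivates transcription and lies on chromosome 1 from 220048873 to 220067124. Its FPKM was 3.00, 3.15 and 1.76 in IR lungs and 8.26, 7.66 and 11.4 in Sham lungs (log2FC -1.75, SE 0.29, adjusted p = 0.0499 from edgeR). IR 3 was the lowest IR library and Sham 3 the highest Sham library, and without Sham 3 the log2FC was -1.51. Both on the minus strand, Rbm14 overlaps with its 3′ end the start of Rbm4, a splicing regulator gene from 220039734 to 220048966, which had 10.5, 12.2 and 10.7 in IR lungs and 18.2, 21.0 and 23.9 in Sham lungs (log2FC -0.87, adjusted p = 0.192 from edgeR). Reads of the overlap cannot be told apart between the pair.

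Aplnr encodes the apelin receptor, a G protein-coupled receptor of endothelial cells, and lies on chromosome 3 from 72540538 to 72544182. The IR libraries held 18.7, 15.6 and 12.2 FPKM, against 54.0, 30.7 and 38.0 in the Sham libraries (log2FC -1.32, SE 0.19, adjusted p = 0.0334 from edgeR). Here Sham 1 was the highest library, and the log2FC was -1.33 without Sham 3 and -1.26 without IR 3. The highest IR value lay well under the lowest Sham value.

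The next genes in order of p among those at least 2-fold lower are given as values, since none passed edgeR's adjusted threshold. There were 25, with a log2FC of -2.03 to -1.05 and adjusted p-values of 0.0515 to 0.167 from edgeR. In all 25 the IR libraries lay below the Sham libraries, and DESeq2 on the 6 libraries called all 25 lower. The order of p favours genes whose groups are separate, so that count describes the choice. Of these genes 21 stayed at least 2-fold lower without Sham 3 and 19 without Sham 3 and IR 3. The 25 genes were chosen in a fit that held the remaining libraries too, so these counts also describe the choice in part. DESeq2 called 32 further genes lower, and 9 of its 60 lower genes had a Sham 3 value over 3 times that of both other Sham libraries.

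Several of the 25 have roles known from blood vessels, though the cells that gave their reads in whole lung tissue were not measured. Gimap4 and Gimap9 encode GTPases of immunity-associated proteins, which lymphocytes and endothelial cells express. Gimap4 had 26.8, 17.7 and 12.7 FPKM in IR lungs and 84.0, 43.0 and 44.4 in Sham lungs (log2FC -1.50, adjusted p = 0.102 from edgeR). Gimap9 had 16.6, 14.5 and 9.14 in IR lungs and 75.5, 31.2 and 37.4 in Sham lungs (log2FC -1.75, adjusted p = 0.121 from edgeR). Sham 1 was the highest library in both. Arhgef15, a GTPase exchange factor gene of endothelium, had 15.6, 12.4 and 8.59 in IR lungs and 37.1, 19.8 and 23.3 in Sham lungs (log2FC -1.05). Amotl2 encodes an angiomotin-like protein that holds YAP at cell junctions, and had 17.7, 17.1 and 8.52 in IR lungs and 55.8, 36.6 and 38.3 in Sham lungs (log2FC -1.53, adjusted p = 0.116 from edgeR). Gimap4, Gimap9 and Amotl2 each kept a log2FC under -1.5 without Sham 3, at -1.62, -1.86 and -1.58.

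Others act in adhesion, junctions and Wnt signaling. Flrt3 encodes a membrane protein of cell adhesion and guidance, with 10.3, 6.39 and 5.90 FPKM in IR lungs and 29.5, 19.4 and 13 in Sham lungs (log2FC -1.37, adjusted p = 0.0859 from edgeR). Cldn15, a claudin gene whose product forms cation pores in tight junctions, had 3.36, 6.33 and 3.93 in IR lungs and 13.2, 30.6 and 13.8 in Sham lungs, which was the lowest log2FC of the 25 at -2.03. Fzd8 encodes a Wnt receptor and had 1.0, 0.951 and 1.0 in IR lungs and 4.8, 2.01 and 4.69 in Sham lungs (log2FC -1.87). LOC100909849 carries values close to those of Fzd8 (1.07, 1.20 and 1.14 in IR lungs and 5.24, 2.17 and 5.25 in Sham lungs) and lies on the same chromosome with a span of the same length, so reads of the pair may be shared and their calls are uncertain. Nck1, the gene of an adaptor that links receptors to actin, had 17.4, 20.4 and 15.4 in IR lungs and 39.6, 37.3 and 39.5 in Sham lungs (log2FC -1.07), a small spread in both groups.

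A further set belongs to RNA, chromatin and the nucleus. Chtf8 encodes a subunit of the clamp loader used in sister chromatid cohesion and came closest to the threshold, with 20.8, 17.5 and 14 FPKM in IR lungs and 38.6, 33.3 and 46.9 in Sham lungs (log2FC -1.14, adjusted p = 0.0515 from edgeR). Mex3b, which encodes an RNA-binding ubiquitin ligase, had 1.10, 1.27 and 0.913 in IR lungs and 5.75, 2.58 and 3.55 in Sham lungs (log2FC -1.75, adjusted p = 0.0643 from edgeR). Setmar, a histone methyltransferase gene, had 0.832, 0.871 and 0.816 in IR lungs and 1.91, 2.94 and 2.71 in Sham lungs (log2FC -1.54). Nrm, the gene of the nuclear envelope protein nurim, had a log2FC of -1.41, and Pwwp2b, of a chromatin reader, one of -1.07 that was -0.75 without Sham 3.

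The remaining genes of the 25 have roles in organelles, transport and signaling. Dynll1 encodes a dynein light chain and held 99.9, 101 and 101 FPKM in IR lungs and 214, 214 and 409 in Sham lungs, so its IR libraries hardly varied and its log2FC of -1.43 was -0.98 without Sham 3. Coa4, an assembly factor gene of cytochrome c oxidase, had 5.96, 5.62 and 3.87 in IR lungs and 12.9, 12.2 and 17.0 in Sham lungs (log2FC -1.40). The log2FC was -1.50 for Pigv, a mannosyltransferase gene of GPI anchors, -1.21 for the deubiquitinase gene Otub2, -1.22 for Wdr92, which takes part in dynein arm assembly, and -1.53 for Pheta2, which acts in endosomal recycling. It was -1.05 for Sh3bp5l, a RAB11 exchange factor gene, and -1.65 for the receptor gene Igflr1. Rbbp8nl and LOC685849, for which no role is given here, had a log2FC of -1.52 and -1.34. The last of the 25 is an entry of Rps27a.

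Rps27a, which encodes ubiquitin fused to a ribosomal protein, has 2 entries in the table, and they moved in opposite directions. The entry on chromosome 14 (113966611 to 113968268) had 4429, 8542 and 5609 counts in IR lungs and 12879, 22991 and 26710 in Sham lungs (log2FC -1.68, adjusted p = 0.143 from edgeR). The entry on chromosome 5 (138628482 to 138629026), which lies inside the span of Foxj3 on the other strand, had 16200, 12640 and 18095 counts in IR lungs and 4648, 5422 and 5160 in Sham lungs (log2FC 1.75, adjusted p = 0.0328 from edgeR). Summed over both entries, the level was 457, 415 and 520 CPM (counts scaled to library size) in IR lungs and 342, 600 and 623 in Sham lungs, and the groups overlapped. Reads of copies this alike could be split between them in counting, so the call of the chromosome 5 entry is uncertain and is not read as a rise of Rps27a.

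**Figure D2:**
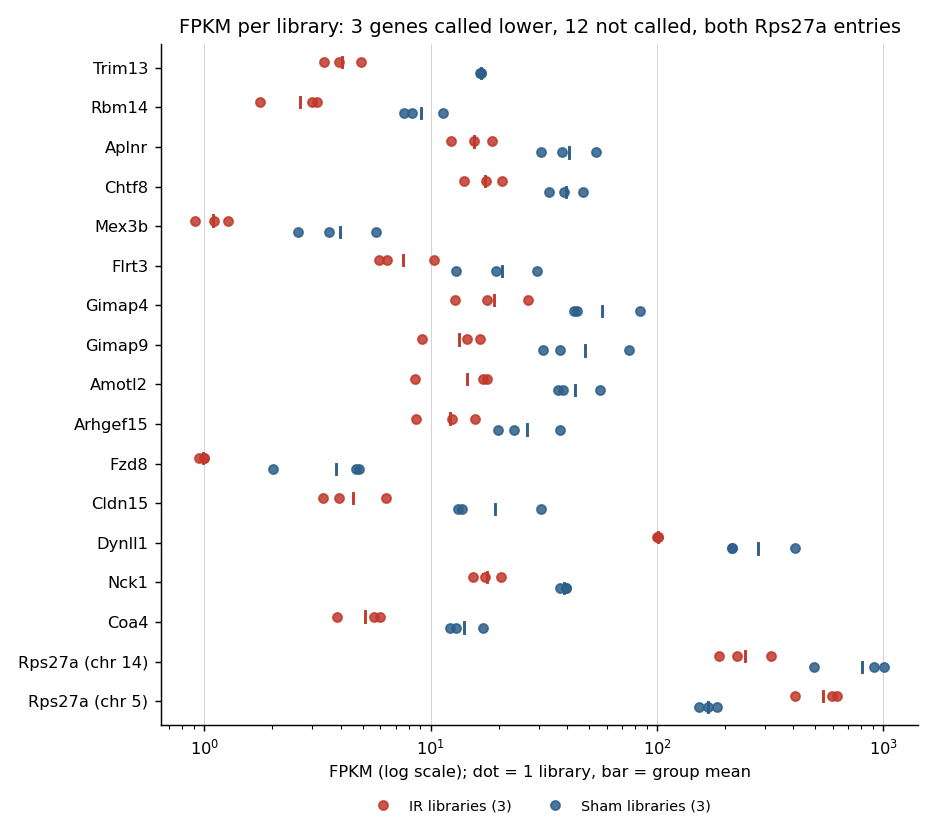
FPKM per library (x axis, log scale) of the 3 genes called lower, 12 genes chosen from the next 25, and both Rps27a entries, with 3 IR libraries (red) above 3 Sham libraries (blue) in each row and a bar at each group mean. The IR dots lie left of the Sham dots in every row except that of the chromosome 5 entry of Rps27a, where 592, 408 and 626 FPKM in IR lungs lie right of 154, 184 and 168 in Sham lungs.

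Sham 3 weighs more on genes that were lower, and IR 3 more on genes that were higher. At an unadjusted p under 0.05 and a change of at least 2-fold, 561 genes were higher and 417 lower. Without Sham 3, 486 of the 561 (86.6%) were still at least 2-fold higher, but 159 of the 417 (38.1%) were still at least 2-fold lower. Without IR 3, 416 of the 561 (74.2%) and 396 of the 417 (95.0%) still were. In 140 of the 417 genes Sham 3 was over 3 times both other Sham libraries, against 14 of the 561 and 396 of all 15402 genes tested. Klf2, a flow-responsive transcription factor gene of endothelium that was named after its values were seen, shows the pattern, with 0.702, 5.72 and 2.70 FPKM in IR lungs and 8.89, 0.512 and 209 in Sham lungs, and a log2FC of -4.58 that was -0.39 without Sham 3. The 417 genes were also short, with a median span from start to end of 3993 bases, against 10393 for the 561 and 17114 for all genes tested. Both sets were chosen with Sham 3 among the libraries, so a high Sham 3 moves a gene toward the 417 and away from the 561. The counts of genes with a high Sham 3 thus describe that choice in part. The part that Sham 3 has in the values of the 417 beyond these counts was not tested. Among DESeq2's lower calls, 54 of 60 (90.0%) were at least 2-fold lower without Sham 3. Those genes were chosen at an adjusted p, and DESeq2 can leave a gene with 1 outlying library without one. Mrpl34, with 6.19, 5.13 and 67.1 FPKM in Sham lungs, had none. The share of the 60 is thus not comparable with that of the 417.

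**Figure D3:**
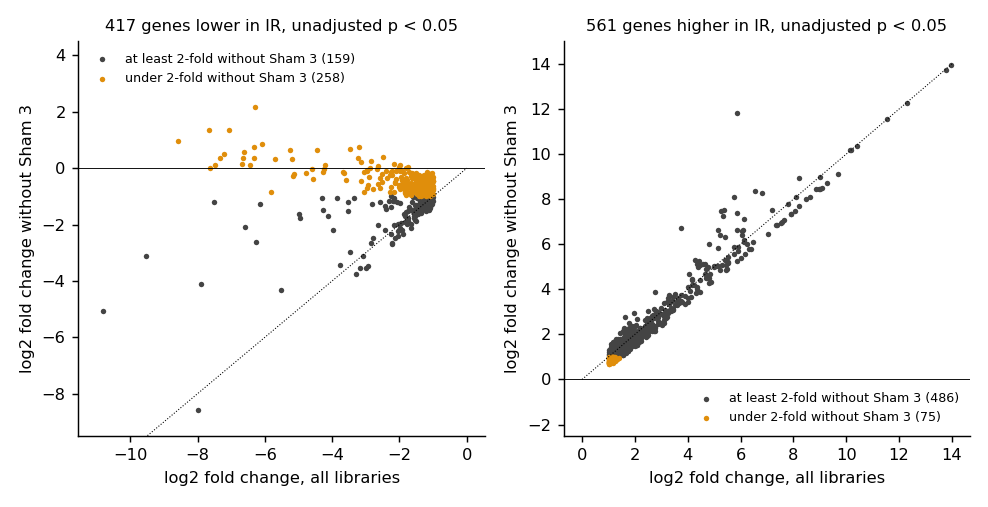
Log2 fold change, IR over Sham, with all libraries (x axis) and without Sham 3 (y axis), for the 417 lower (left) and 561 higher genes (right) at an unadjusted p under 0.05, where the dotted line marks equal values. Of the lower genes 159 stay at or under -1 without Sham 3, and of the higher genes 486 stay at or above 1.

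Several gene lists had a larger share of members with separate groups downward than the 9.44% of all genes. The share was highest in the GIMAP GTPase genes (50%), the Rbm genes (27.0%), the Wnt genes (20%) and the alveolar type 2 markers (19.0%), and nearer to the background in others. Members of the lists came from gene names and textbook knowledge. For the ribosome, oxidative phosphorylation and similar lists they came from the pathway names in the deposited table. The members and lists were chosen with earlier results of these data known, so their shares are not independent of these data. A list is described by its counts and its median beside those of all genes. Of 37 genes named Rbm, 10 (27.0%) had every IR library below every Sham library and 2 had every IR library above. Rbm14 fell, and next came Rbm4, Rbm4b (5.39, 5.41 and 3.60 FPKM in IR lungs and 8.65, 9.38 and 8.46 in Sham lungs, log2FC -0.83) and Rbm26 (log2FC -0.57). The list's median log2FC was only -0.05, and Rbm3, a cold-inducible member that was named after its values were seen, lay the other way with 221, 242 and 261 in IR lungs and 135, 179 and 135 in Sham lungs.

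Of 37 TRIM ligase genes, 1 was called lower (Trim13), 6 (16.2%) had separate groups downward and 3 upward, with a median log2FC of -0.13. Trim32 had 3.97, 4.90 and 3.01 FPKM in IR lungs and 9.36, 7.42 and 7.5 in Sham lungs (log2FC -0.96, adjusted p = 0.172 from edgeR), and Trim8 had a log2FC of -0.81. Trim16 went against them, with 7.65, 5.94 and 6.62 in IR lungs and 1.98, 2.09 and 0.699 in Sham lungs (log2FC 2.17, adjusted p = 0.0911 from edgeR).

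In all 6 GIMAP genes the log2FC was negative (median -0.82), and 3 of them (Gimap4, Gimap9 and Gimap5) had separate groups. Gimap5 had 23.7, 18.6 and 15.1 FPKM in IR lungs and 28.6, 28.7 and 37.8 in Sham lungs (log2FC -0.69), and Gimap7 had 39.4, 18.3 and 16.4 in IR lungs and 60.9, 36.3 and 50.8 in Sham lungs, which overlap. None of the 6 passed edgeR's test, 5 had an unadjusted p under 0.05, and DESeq2 called Gimap4 and Gimap9. The GIMAP genes lie side by side on chromosome 4 and resemble each other in sequence, so their reads may be shared.

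Of 35 Wnt genes, 7 (20%) had separate groups downward and 0 upward, with a median log2FC of -0.03. edgeR called 0 of them, with 6 lower and 1 higher at an unadjusted p under 0.05, and DESeq2 called Fzd8. Beside Fzd8 these included Axin2, the feedback gene of the pathway, with 5.45, 5.71 and 3.12 FPKM in IR lungs and 11.4, 8.01 and 8.79 in Sham lungs (log2FC -0.92, adjusted p = 0.199 from edgeR). Wnt3a had 11, 14.1 and 9.01 in IR lungs and 17.0, 23 and 28.9 in Sham lungs (log2FC -0.99). The receptor gene Fzd4 went against them, with a log2FC of 0.68 and groups that overlapped.

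Of 207 zinc finger genes named Zfp, 27 (13%) had separate groups downward and 8 upward, with a median log2FC of -0.08 and no call by edgeR, with 26 lower and 7 higher at an unadjusted p under 0.05 and 1 call in each direction by DESeq2. Zfp467 had 3.19, 2.46 and 2.41 FPKM in IR lungs and 5.82, 4.29 and 6.32 in Sham lungs (log2FC -0.97), and Zfp746 had 11.2, 13.8 and 10.8 in IR lungs and 9.43, 7.5 and 6.43 in Sham lungs (log2FC 0.70). Ribosomal protein genes were near the background only in their share with separate groups downward. Of 169, 15 (8.88%) had separate groups downward and 0 upward, and 145 had a log2FC below 0 and 24 above. edgeR called 0 and DESeq2 1 lower, with 10 lower and 1 higher at an unadjusted p under 0.05. The list's median log2FC of -0.22 was 0.04 without Sham 3 and -0.44 without IR 3.

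Of the epithelial lists, the alveolar type 2 markers and the tight junction genes leaned downward and the ion transport genes upward. Of 21 alveolar type 2 markers edgeR and DESeq2 called 0, with 2 lower at an unadjusted p under 0.05, and 4 (19.0%) had separate groups downward. They were Lpcat1, the acyltransferase gene of surfactant lipid synthesis (64.5, 50.0 and 45.6 FPKM in IR lungs and 108, 88.8 and 81.1 in Sham lungs, log2FC -0.73, adjusted p = 0.116 from edgeR), and the transcription factor genes Etv5 (20.4, 17.2 and 16.8 in IR lungs and 33.4, 33.8 and 26.6 in Sham lungs, log2FC -0.72), Nkx2-1 (log2FC -0.43) and Cebpa (log2FC -0.54, and -0.17 without Sham 3). The list's median was -0.20. Of 28 tight junction genes edgeR called 0 and DESeq2 2, with 4 lower and 1 higher at an unadjusted p under 0.05, and 4 (14.3%) had separate groups downward and 0 upward, with a median of -0.26. Cldn2 was among the 4, with 0.217, 0.152 and 0.277 FPKM in IR lungs and 0.401, 5.52 and 0.602 in Sham lungs, where Sham 2 alone was high. Of 22 genes of alveolar fluid clearance and ion transport edgeR called 0 and DESeq2 1, with 5 higher and 1 lower at an unadjusted p under 0.05. In that list 5 (22.7%) had separate groups upward and 2 downward, with a median of 0.19.

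Among 36 endothelial cell markers, edgeR called Aplnr alone and DESeq2 called Aplnr and Sox18, 4 (11.1%) had separate groups downward and 3 upward, and the median log2FC was -0.09, with 19 markers below 0 and 17 above. Sox18, a transcription factor gene of endothelium, lay on the side of Aplnr with 3.52, 8.31 and 3.99 FPKM in IR lungs and 12.8, 14.4 and 83.2 in Sham lungs (log2FC -2.81, and -1.28 without Sham 3, adjusted p = 0.27 from edgeR). Vwf, the von Willebrand factor gene, had 92.0, 90.4 and 72.6 FPKM in IR lungs and 94.2, 86.8 and 101 in Sham lungs (log2FC -0.09). Clec14a, an endothelial lectin gene, was on the other side with 264, 253 and 211 in IR lungs and 193, 148 and 142 in Sham lungs (log2FC 0.67, adjusted p = 0.13 from edgeR). S1pr1, the sphingosine 1-phosphate receptor gene that holds the barrier closed, had 182, 173 and 122.98 in IR lungs and 109, 98.2 and 94.7 in Sham lungs (log2FC 0.72). The markers thus lay on both sides of 0, and a test of the difference between Aplnr and the others was not run.

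**Figure D4:**
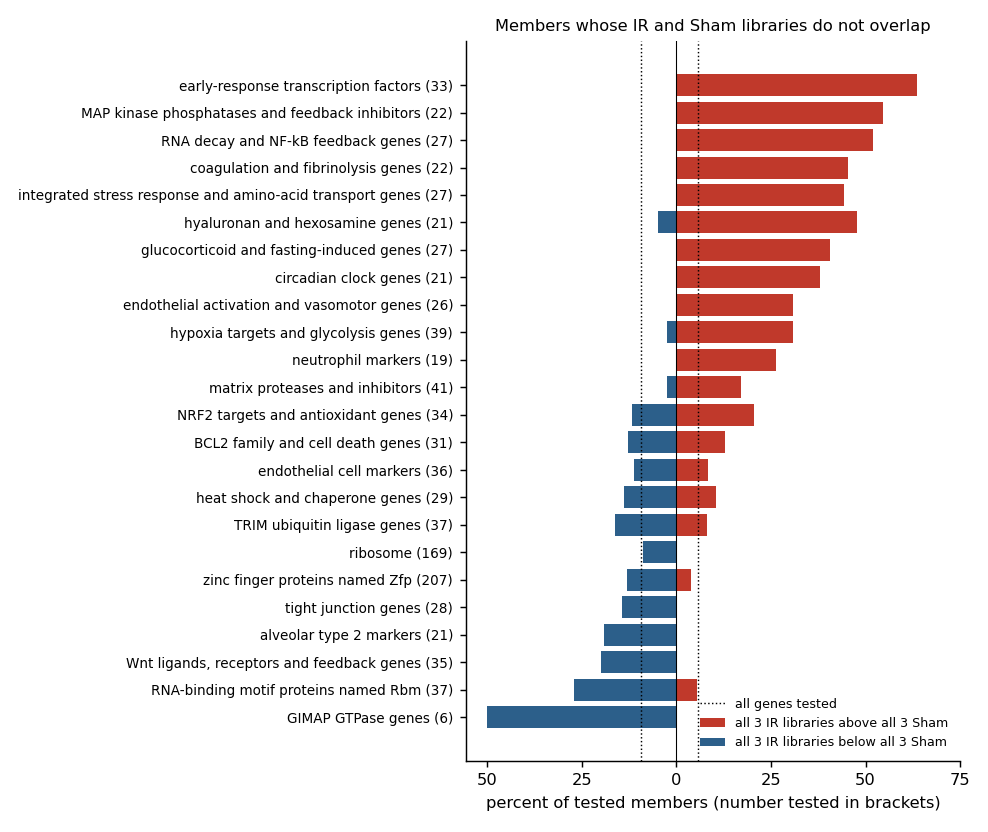
Bars give the percent of each list's tested members (number in brackets) whose 3 IR libraries all lie above (red, right) or all below (blue, left) the 3 Sham libraries, with dotted lines at the shares over all genes tested, 5.62% and 9.44%. Lists of early-response, feedback, coagulation and hyaluronan genes extend to the right and those of GIMAP, Rbm and Wnt genes to the left.

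On the other side of the comparison, 42 of the 43 genes called higher are annotated as protein coding, and in all 43 the IR libraries lay above the Sham libraries. A small p favours genes whose groups are separate, so the latter count describes the choice. Of these, 6 are cytokines, chemokines or their receptors, among them Il6, Cxcl1, Ccl7 and Osm, with a log2FC of 6.48, 4.03, 4.68 and 2.03. The 2 receptor genes, named after their values were seen, were Il6r (1.54) and Il4r (1.46). The other 37 are described below by role, and a few of them fall in no list.

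The smallest adjusted p in the comparison belonged to a kinase gene. Map3k8 encodes the MAP kinase kinase kinase TPL2, which carries toll-like receptor signals to ERK, and had 34.3, 29.0 and 28.0 FPKM in IR lungs and 10.6, 9.02 and 7.82 in Sham lungs (log2FC 1.81, SE 0.15, adjusted p = 0.00859 from edgeR). Tlr2, the receptor gene for bacterial lipoproteins upstream of it, had 12.3, 13.9 and 10.1 in IR lungs and 5.81, 4.24 and 3.47 in Sham lungs (log2FC 1.51, adjusted p = 0.0322 from edgeR). Errfi1, which encodes a feedback inhibitor of the EGF receptor, had 203, 151 and 131 in IR lungs and 37.7, 36.3 and 30.8 in Sham lungs (log2FC 2.27, adjusted p = 0.0497 from edgeR). The small GTPase gene Rasd1, induced by dexamethasone, had 8.77, 8.10 and 8.72 in IR lungs and 1.20, 1.52 and 2.03 in Sham lungs (log2FC 2.47, adjusted p = 0.0459 from edgeR). Of 22 MAP kinase phosphatase and feedback genes 1 was called and 12 (54.5%) had separate groups upward, 0 downward, with a median log2FC of 0.93. Its next members were Spry4 (log2FC 1.48), Rgs16 (4.15) and Rgs2 (1.03), none past edgeR's threshold.

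Of 33 early-response transcription factor genes, Bhlhe40 and Fosl2 were called, 21 (63.6%) had separate groups upward and 0 downward, and the median log2FC of 1.44 was the highest of the lists of transcription factors. At an unadjusted p under 0.05, 19 were higher and 2 lower, and 9 of the 33 had a log2FC below 0. The list's summed FPKM was 1325, 1218 and 1148 in IR lungs and 574, 530 and 1802 in Sham lungs, which overlap. Bhlhe40 encodes a repressor of the circadian clock, with 62.9, 49.4 and 62.0 FPKM in IR lungs and 13.9, 10.5 and 5.53 in Sham lungs (log2FC 2.65, adjusted p = 0.0274 from edgeR). Fosl2, an AP-1 subunit gene, had 7.95, 9.15 and 8.90 in IR lungs and 2.89, 1.69 and 1.83 in Sham lungs (log2FC 2.12, adjusted p = 0.0489 from edgeR). Csrnp1 (log2FC 1.96) and Nfil3 (2.14) came next at adjusted p = 0.0614 and 0.0706 from edgeR. Fos itself, named after its values were seen, had 28.1, 24.6 and 39.0 in IR lungs and 4.18, 3.67 and 1.44 in Sham lungs (log2FC 3.42, adjusted p = 0.122 from edgeR).

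Clock genes leaned upward as a group. Of 21, Bhlhe40 and Cry2 were called and 8 (38.1%) had separate groups upward, 0 downward, with a median log2FC of 0.98 that was 0.34 without Sham 3 and IR 3. Cry2, a repressor gene of the clock, had 19.2, 18.4 and 20.6 FPKM in IR lungs and 8.48, 8.55 and 9.13 in Sham lungs (log2FC 1.22, adjusted p = 0.046 from edgeR), with little spread in either group. Rora (log2FC 1.87) followed. The sources used here do not give the hour at which each lung was taken, and its part in these values was not tested.

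Genes that limit inflammatory transcripts and signals rose. Zc3h12a encodes the ribonuclease Regnase-1, and had 23.5, 31.8 and 43.3 FPKM in IR lungs and 7.83, 4.39 and 6.19 in Sham lungs (log2FC 2.54, adjusted p = 0.0274 from edgeR). Arid5a, whose product stabilizes the Il6 transcript against Regnase-1, had 24.6, 43.7 and 41.3 in IR lungs and 6.72, 5.33 and 7.58 in Sham lungs (log2FC 2.57, adjusted p = 0.0322 from edgeR), so both sides of that balance were higher. Socs3, the feedback inhibitor gene of STAT3, had 55.3, 119 and 126 in IR lungs and 17.0, 11.3 and 16.2 in Sham lungs (log2FC 2.86, adjusted p = 0.0334 from edgeR). Birc3, which encodes an inhibitor of apoptosis that acts in NF-kB signaling, had 16.3, 14.5 and 24.8 in IR lungs and 4.90, 4.04 and 2.33 in Sham lungs (log2FC 2.42, adjusted p = 0.0466 from edgeR). Of 27 RNA decay and NF-kB feedback genes 2 were called and 14 (51.9%) had separate groups upward, 0 downward, with a median of 0.76. Zfp36, the gene of the decay factor tristetraprolin, reached 195, 270 and 230 in IR lungs and 68.6, 58.2 and 77.8 in Sham lungs (log2FC 1.84, adjusted p = 0.0871 from edgeR).

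Vessel genes were among those with large changes. Apold1, an early-response gene of endothelium, had 134, 65.8 and 94.8 FPKM in IR lungs and 1.69, 3.04 and 1.81 in Sham lungs (log2FC 5.53, SE 0.70, adjusted p = 0.0274 from edgeR). The vasoconstrictor gene Edn1, for endothelin-1, had 170, 118 and 52.6 in IR lungs and 26.6, 24.7 and 16.5 in Sham lungs (log2FC 2.36, adjusted p = 0.0372 from edgeR). Ptgs2, the inducible cyclooxygenase gene, had 6.05, 13.8 and 16.5 in IR lungs and 1.51, 0.998 and 0.401 in Sham lungs (log2FC 3.80, adjusted p = 0.0459 from edgeR). In these 3 genes no IR library came near the Sham range. Of 26 endothelial activation and vasomotor genes these 3 were called and 8 (30.8%) had separate groups upward, 0 downward.

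Genes that start and that limit fibrinolysis were among those that rose. Plat, the gene of tissue plasminogen activator, had 148, 206 and 165 FPKM in IR lungs and 60.8, 54.7 and 72.7 in Sham lungs (log2FC 1.53, adjusted p = 0.0497 from edgeR). Tfpi2, which encodes an inhibitor of plasmin and other proteases, had 5.07, 7.67 and 32.3 in IR lungs and 0.808, 0.535 and 0.424 in Sham lungs, and its log2FC of 4.84 was 3.43 without IR 3. F3, the gene of tissue factor, had 278, 181 and 194 in IR lungs and 50.7, 63.7 and 61.2 in Sham lungs (log2FC 1.93, adjusted p = 0.0706 from edgeR). Of 22 coagulation and fibrinolysis genes 10 (45.5%) had separate groups upward, 0 downward, with a median of 0.62.

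Genes of hyaluronan synthesis and of its sugar precursors rose together with proteases that cut proteoglycans. Has1, a hyaluronan synthase gene, had 8.22, 17.9 and 18.0 FPKM in IR lungs and 0.516, 0.476 and 0.700 in Sham lungs (log2FC 4.78, adjusted p = 0.0322 from edgeR). Has2 was much lower in level, with 0.386, 1.5 and 2.14 in IR lungs and 0.0628, 0.0141 and 0.0164 in Sham lungs (log2FC 5.51, adjusted p = 0.0497 from edgeR). Its Sham counts were 15, 4 and 4, near the floor, so the size of its change is uncertain. With limma on log2 FPKM and a pseudocount of 0.5 it was not called (log2FC 1.66, adjusted p = 0.168 from limma). Gfpt2, which encodes the first enzyme of the hexosamine pathway, had 21.3, 23.5 and 53.2 in IR lungs and 2.09, 2.33 and 0.890 in Sham lungs (log2FC 4.34, adjusted p = 0.0334 from edgeR). IR 3 was the highest library for Has1, Has2 and Gfpt2, and without it the log2FC was 4.5, 4.88 and 3.65. Of 21 genes of the list 3 were called, 10 (47.6%) had separate groups upward and 1 downward, with a median of 0.67.

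Among 41 matrix protease and inhibitor genes the called members were 3 of the ADAMTS family. Adamts1 had 71.1, 60.4 and 107 FPKM in IR lungs and 14.3, 17.3 and 8.87 in Sham lungs (log2FC 2.66, adjusted p = 0.0466 from edgeR). Adamts4, an aggrecanase gene, had 1.04, 4.27 and 5.66 in IR lungs and 0.173, 0.0748 and 0.116 in Sham lungs (log2FC 5.05, adjusted p = 0.0328 from edgeR). Adamts9 had 19.9, 22.8 and 16.2 in IR lungs and 7.44, 8.06 and 5.27 in Sham lungs (log2FC 1.57, adjusted p = 0.0274 from edgeR). The list as a whole had 7 members (17.1%) with separate groups upward, 1 downward, and a median of 0.26, so the ADAMTS genes were not typical of it. Mmp8, a neutrophil collagenase gene, missed the threshold at a log2FC of 3.60 (adjusted p = 0.225 from edgeR), with IR 2 at 64.0 and the other IR libraries at 15.9 and 15.7.

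Metabolic and stress genes made up a further group. Depp1, which FOXO factors induce on fasting, had 235, 193 and 96.1 FPKM in IR lungs and 16.2, 17.9 and 23.5 in Sham lungs (log2FC 3.20, SE 0.32, adjusted p = 0.0225 from edgeR), and it lies inside Rassf4 on the other strand. Pfkfb3, the gene of the enzyme that makes the activator of phosphofructokinase, had 73.4, 73.3 and 92.7 in IR lungs and 21.2, 24.1 and 18.0 in Sham lungs (log2FC 2.00, adjusted p = 0.0274 from edgeR). Slc7a1, a transporter gene of arginine and lysine, had 6.04, 8.91 and 7.38 in IR lungs and 2.57, 1.9 and 1.28 in Sham lungs (log2FC 2.06, adjusted p = 0.0274 from edgeR). Each stands for a list that leaned upward. Of 27 glucocorticoid and fasting-induced genes 2 were called and 11 (40.7%) had separate groups upward (median 1.04), of 39 hypoxia and glycolysis genes 1 and 12 (30.8%, median 0.35, and 0.08 without IR 3), and of 27 genes of the integrated stress response and amino-acid transport 1 and 12 (44.4%, median 0.13). Mt2A, a metallothionein gene, had 120, 340 and 657 in IR lungs and 3.71, 9.91 and 8.32 in Sham lungs (log2FC 5.76, adjusted p = 0.0864 from edgeR), and its IR libraries differed widely. Hk2, a hexokinase gene, and Slc7a5, an amino-acid transporter gene, had a log2FC of 1.67 and 1.85.

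The other called genes fall in no list above. Lrrc32 encodes GARP, which anchors latent TGF-beta on the cell surface, and had 32.6, 44.7 and 25 FPKM in IR lungs and 9.50, 9.81 and 8.87 in Sham lungs (log2FC 1.91, adjusted p = 0.0274 from edgeR). The long intergenic RNA AABR07004868.2, with 12, 10 and 6.70 in IR lungs and 1.13, 1.61 and 0.505 in Sham lungs (log2FC 3.18), starts 1649 bases beyond the end of Lrrc32 on the same strand, so reads that run past that gene could be counted to it. Sema7a, a membrane-anchored semaphorin gene, had 61.9, 101 and 68.1 in IR lungs and 23.2, 15.1 and 26.5 in Sham lungs (log2FC 1.91, adjusted p = 0.0459 from edgeR). Wee1, the gene of the kinase that holds back entry into mitosis, had a log2FC of 1.51, Bcar3, an adaptor gene of cell migration, one of 1.41, and Snx18, a sorting nexin gene, one of 1.15. Tmem252 (1.86), Fam110c (3.54) and Uaca (1.07) rose as well, and of these Uaca and Snx18 dropped below a log2FC of 1 when 1 library was left out (0.99 and 0.98). Olr1565 is an olfactory receptor gene with 2.55, 1.22 and 2.90 in IR lungs and 0.0379, 0 and 0 in Sham lungs. Its Sham counts are at the floor, so no fold is given, and olfactory receptor genes resemble each other in sequence.

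**Figure D5:**
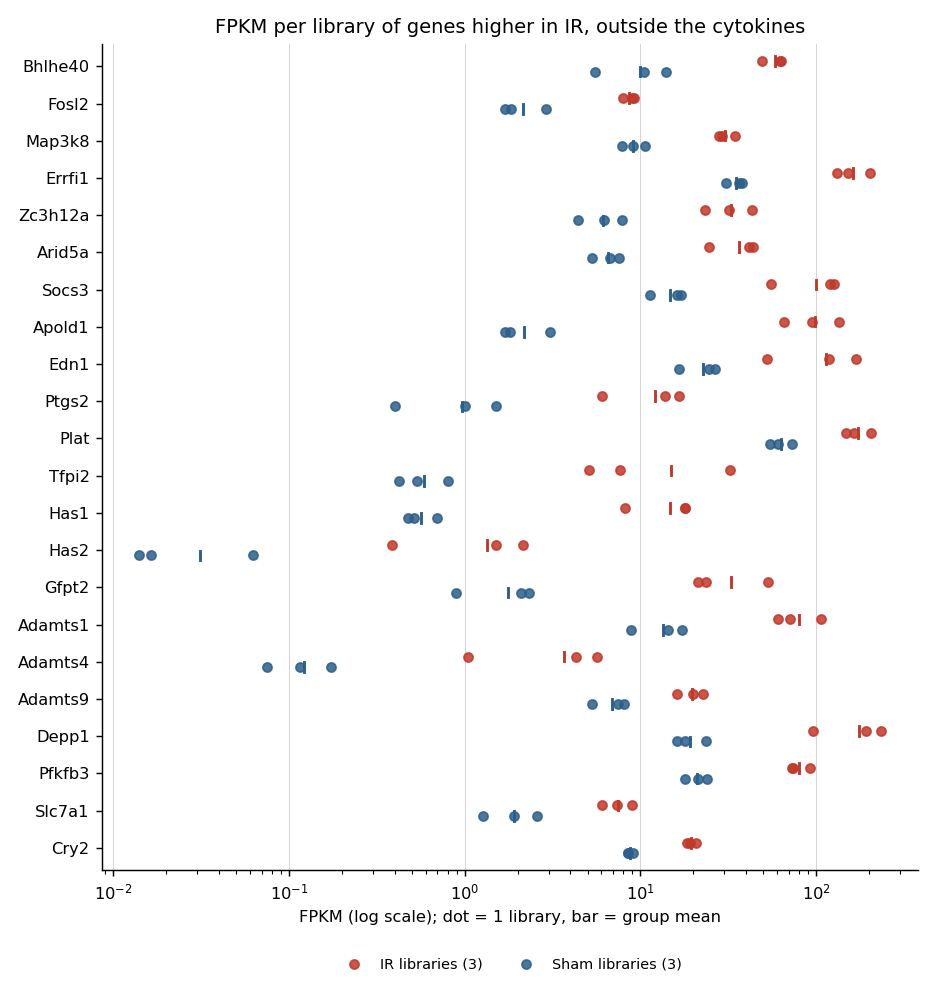
FPKM per library (x axis, log scale) of 22 called genes outside the cytokines, with 3 IR libraries (red) above 3 Sham libraries (blue) in each row and a bar at each group mean. In all rows the IR dots lie right of the Sham dots, which the choice of called genes favours. The gap is widest in Apold1, with 134, 65.8 and 94.8 in IR lungs and 1.69, 3.04 and 1.81 in Sham lungs.

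Lists of cell death and stress proteins split in both directions. Of 31 BCL2 family and cell death genes 1 was called (Birc3), 4 (12.9%) had separate groups upward and 4 downward, and the median log2FC was -0.07. The pyroptosis genes Gsdmd, with 13.4, 14.1 and 14 FPKM in IR lungs and 21.5, 28.0 and 24.7 in Sham lungs (log2FC -0.78, adjusted p = 0.196 from edgeR), and Casp1, named after its values were seen and with a log2FC of -0.54, lay on the lower side. Pmaip1, the gene of the BH3-only protein NOXA, lay on the upper side with 19.4, 21.1 and 25.4 in IR lungs and 7.28, 5.33 and 2.71 in Sham lungs (log2FC 2.23, adjusted p = 0.0925 from edgeR). Of 29 heat shock and chaperone genes 0 were called by either tool, 4 in each direction had an unadjusted p under 0.05, and 3 had separate groups upward and 4 downward. Dnaja1, a cochaperone gene, had 87.3, 81.0 and 74.6 in IR lungs and 136, 116 and 111 in Sham lungs (log2FC -0.51), and Stip1 had a log2FC of -0.48. Of 34 NRF2 targets and antioxidant genes edgeR called 0 and DESeq2 5, with 8 higher and 2 lower at an unadjusted p under 0.05, and 7 had separate groups upward and 4 downward, among them Txnrd1 (log2FC 1.14) and Sod2 (1.15) above and Gpx4, named after its values were seen, below (-1.28, and -0.59 without Sham 3).

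Markers of neutrophils and of blood leaned upward, while proliferation genes did not. Of 19 neutrophil markers tested 0 were called by edgeR, 5 at an unadjusted p under 0.05, and 5 by DESeq2, with 5 (26.3%) separate upward, 0 downward and a median log2FC of 0.76 that was 0.80 without Sham 3 and IR 3. Il1r2, a decoy receptor gene for interleukin-1, had 14.8, 37.9 and 13.2 FPKM in IR lungs and 1.31, 2.07 and 1.67 in Sham lungs (log2FC 3.73, adjusted p = 0.143 from edgeR and 5.91e-11 from DESeq2). S100a9, a calprotectin gene, had 168, 463 and 214 FPKM in IR lungs and 53.7, 86.5 and 72.0 in Sham lungs (adjusted p = 0.304 from edgeR). The log2FC was positive in all 12 red blood cell and platelet markers (median 1.14, and 0.81 without IR 3). edgeR called 0 of them and DESeq2 2, with 5 higher at an unadjusted p under 0.05, and 5 (41.7%) had separate groups upward. Their summed FPKM was 5775, 17563 and 21426 in IR lungs and 7228, 4707 and 12698 in Sham lungs, which overlap. Of 31 proliferation genes 0 were called by edgeR or DESeq2 or reached an unadjusted p under 0.05, and 0 had separate groups in either direction. The same held for calls in 19 alveolar type 1 markers and 30 T and NK cell markers, with a median log2FC of -0.09 and 0.00, and 0 and 1 of them at an unadjusted p under 0.05. In the oxidative phosphorylation list 0 of 126 genes were called by either tool, with 2 higher and 2 lower at an unadjusted p under 0.05 and a median of -0.06 that was -0.40 without IR 3.

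Promoters of the called genes were searched for binding motifs of factors that act early after reperfusion, in the 250 bases before the RefSeq start on both strands. The motifs were AP-1 (TGANTCA), CRE (TGACGTCA), the NF-kB motif, the SRF CArG box, the hypoxia core (ACGTG) and the E-box (CACGTG). An E-box contains the hypoxia core on both strands, so each E-box also counts there. RefSeq promoters of the GRCr8 build were matched to 33 of the 43 higher genes and to 21 of the 28 lower genes (3 called and 25 next), which is under 80% in each, so a comparison of shares between the groups is void and single promoters are shown as a description. Over the matched promoters of 10746 genes tested, AP-1 was found in 4.66%, CRE in 2.75%, NF-kB in 8.4%, the CArG box in 1.25%, the hypoxia core in 21.7% and the E-box in 7.97%. The promoters below, from genes described above, are those of the kinase gene with the smallest adjusted p, of a receptor gene, a synthase gene, a glycolysis gene and a clock repressor gene that rose, and of Trim13, which fell. Capitals mark every match, namely AP-1 in Map3k8 (chr17:58077925-58078174, plus strand), 3 NF-kB matches in Tlr2 (chr2:171504558-171504807, minus strand), of which 2 overlap, CRE in Has1 (chr1:67378445-67378694, minus strand), NF-kB and an E-box in Pfkfb3 (chr17:71944683-71944932, plus strand), and an E-box and 2 further hypoxia cores in Bhlhe40 (chr4:143174200-143174449, plus strand). Trim13 (chr15:39939646-39939895, plus strand) holds no match in this window. The promoters shown do not stand for their groups. Those of Depp1, Slc7a1 and Zc3h12a, which rose, hold no match, and those of Chtf8, Nrm and Cldn15, from the lower genes, do hold matches. A match is a run of letters and not a measured binding site.
Map3k8: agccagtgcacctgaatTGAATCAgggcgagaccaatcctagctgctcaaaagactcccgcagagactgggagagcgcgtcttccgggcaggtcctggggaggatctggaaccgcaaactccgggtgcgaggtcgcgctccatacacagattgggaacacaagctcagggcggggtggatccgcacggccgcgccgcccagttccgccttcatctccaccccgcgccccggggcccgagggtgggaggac
Tlr2: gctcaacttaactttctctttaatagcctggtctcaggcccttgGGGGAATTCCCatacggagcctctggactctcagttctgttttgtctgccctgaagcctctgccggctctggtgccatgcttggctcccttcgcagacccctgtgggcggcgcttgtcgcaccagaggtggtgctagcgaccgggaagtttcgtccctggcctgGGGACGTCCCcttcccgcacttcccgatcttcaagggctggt
Has1: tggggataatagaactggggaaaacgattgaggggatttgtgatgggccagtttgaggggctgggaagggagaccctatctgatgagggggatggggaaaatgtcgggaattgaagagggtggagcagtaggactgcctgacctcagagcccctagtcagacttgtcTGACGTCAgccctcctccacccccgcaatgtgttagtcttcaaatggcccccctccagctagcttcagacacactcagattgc
Pfkfb3: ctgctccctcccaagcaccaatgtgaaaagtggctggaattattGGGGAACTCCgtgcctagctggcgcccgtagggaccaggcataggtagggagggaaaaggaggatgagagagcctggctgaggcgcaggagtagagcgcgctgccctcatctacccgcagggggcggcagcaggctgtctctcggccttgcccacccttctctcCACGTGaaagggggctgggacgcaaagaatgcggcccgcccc
Bhlhe40: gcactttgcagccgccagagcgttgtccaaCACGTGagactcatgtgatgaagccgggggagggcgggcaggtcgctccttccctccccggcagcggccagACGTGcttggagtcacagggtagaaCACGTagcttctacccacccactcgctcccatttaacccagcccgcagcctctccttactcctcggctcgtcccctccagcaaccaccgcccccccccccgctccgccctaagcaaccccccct
Trim13: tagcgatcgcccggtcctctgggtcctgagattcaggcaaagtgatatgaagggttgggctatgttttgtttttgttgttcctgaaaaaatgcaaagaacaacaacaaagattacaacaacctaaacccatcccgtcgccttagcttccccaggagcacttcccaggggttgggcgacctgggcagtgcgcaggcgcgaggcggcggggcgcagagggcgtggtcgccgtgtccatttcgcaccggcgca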

How the data were processed

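Poly(A) RNA of whole lung was sequenced as strand-marking libraries, 3 per group. The submitters' processing notes name cutadapt 1.9, HISAT2 2.2.1, StringTie 2.1.6 and the rn6 build. The authors deposited 1 table with a count and an FPKM value per gene and library. The sources used here do not give the counting method. Columns of other samples left out numbered 0.

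The counts as deposited were tested with edgeR 4.0.16 (TMM scaling, quasi-likelihood test, group as the only term, all 9 libraries) in R 4.3.3 for 15402 genes (mean FPKM 0.5 or more over the 9 libraries), with Benjamini-Hochberg adjustment over all of them. Calls needed an adjusted p below 0.05 together with a 2-fold change. The standard error is the size of the log2FC divided by the square root of F. The fit was tested on simulated data. Alternatives were RLE and upper quartile scaling, no filter or a mean FPKM of at least 1, the 6 libraries alone, DESeq2 1.42.0, limma 3.58.1 on log2(FPKM + pseudocount) with a pseudocount of 0.1, 0.5 or 1, voom with library weights, a replicate block, no fold limit, and each library left out. Total counts were 45110590 to 51214941 per library, in each case more than the mapped reads the paper lists, and intervals from counting were not computed.

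The genes named are all called genes (at most 4 cytokines), the 25 genes of smallest p among uncalled genes at least 2-fold lower, and in each list the called members and up to 4 of smallest p. The others are said to be named after their values were seen, or are a cell type's most abundant marker. The values of 1 called gene are not reported here. The members and lists were chosen with earlier results of these data known. RefSeq promoters of GRCr8 were matched by gene and chromosome, and all other coordinates are rn6.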

Additional observations from a re-analysis of the deposited data

How the results depend on the processing

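The count of 43 higher and 3 lower genes became 41 and 2 with RLE scaling, 39 and 4 with upper quartile scaling, 40 and 4 at a mean FPKM of at least 1, and 44 and 3 with no fold limit. It was 31 and 1 with no filter on low values, 6 and 0 with the IR and Sham libraries alone (514 and 271 at an unadjusted p under 0.05), 240 and 96 with DESeq2 on all 9 libraries, 233 and 60 with DESeq2 on the 6 libraries, and 69 and 21 with voom and library weights. limma on log2 FPKM gave 37 and 1 with a pseudocount of 0.5, 39 and 1 with 0.1, and 36 and 1 with 1. Leaving out 1 library gave 0 to 52 higher and 0 to 3 lower genes, and without Sham 3 and IR 3, chosen after seeing the data, 5 and 0. The causes were not tested. With the replicate block the counts were 25 and 1. Same-numbered IR and Sham libraries had correlations of 0.452, -0.126 and 0.268 of their deviations from the group means. Those of IR and Sham libraries with unlike numbers ran from -0.408 to 0.115. With 3 libraries a group, these values cannot decide whether libraries of the same number share more than that number. The log2FC of Rpl3l turned to -0.37 with voom and library weights. With 3 libraries a group and a biological coefficient of variation of 0.406, small changes were not detectable.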

Other observations

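Small nucleolar RNAs, which guide the modification of ribosomal RNA, leaned upward in IR lungs. The median log2FC of 199 genes was 0.55, and 0.56 without Sham 3. All 3 IR libraries lay above all 3 Sham libraries for 51 of them and below for 4. Over all genes tested the shares were 5.62% above and 9.44% below. Of the 43 genes that edgeR called higher, 42 are protein coding and the other is a long intergenic RNA. The median FPKM of the 199 genes was 3.06, 2.61 and 2.67 in IR lungs and 1.69, 1.67 and 1.66 in Sham lungs, so the groups did not overlap. Libraries made from poly(A) RNA hold such short transcripts poorly, and many lie inside introns of other genes, so reads of the host transcript could be counted to them, which was not tested.

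Mitochondrial transfer RNAs had a median log2FC of 0.98 over 22 genes, with 29.4, 31.5 and 67.0 as the median FPKM in IR lungs and 32.2, 22.6 and 14.2 in Sham lungs, which overlap. Long intergenic RNAs had a median log2FC of -0.06 over 265 genes.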
